A study of Homo sapiens with 6 samples.

Results

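Glycolytic enzymes and other genes that cells switch on when oxygen is low were followed by RNA sequencing in HK-2 cells, an immortalized line from human kidney proximal tubule. The set held 40 genes chosen by symbol as known glycolytic or hypoxia-induced genes, and each symbol matched 1 of the 57905 rows of the deposited gene table. All 40 genes passed the filter on low counts, which kept 15343 rows for testing. Of the 40, 21 are glucose transporters, glycolytic enzymes and their regulators, 2 are kinases that gate pyruvate entry into mitochondria, and 17 are other hypoxia-induced genes.

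The study knocked down INO80, the ATPase of a chromatin remodelling complex, with an siRNA pool and used a non-targeting pool as the control. RNA was taken after 48 h, from 3 samples per siRNA numbered 1 to 3. All 6 samples were the same line, received the same transfection reagent and were grown at 37 °C and 5% CO2, and the sample descriptions name no low-oxygen step, so the values are levels in ordinary culture. Nothing states that the 3 samples of a group came from separate cultures, so p-values measure the spread between these samples, which may be technical.

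INO80 itself was read at 46.3, 49.3 and 54.0 CPM (counts per 1000000 scaled counts) in control samples 1, 2 and 3 and at 13.8, 12 and 14.2 CPM in the knockdown samples, a fold of 0.267 with no overlap (edgeR adjusted p = 0.000161). Library totals ran from 16829273 to 23784599 counts. Of 17 proximal tubule markers, 6 had a mean of at least 1 FPKM (fragments per kilobase of gene and 1000000 counted), among them PAX8, GGT1 and DPP4, while LRP2, SLC22A6, SLC22A8, SLC5A12 and HNF4A were listed at 0 in every library. Keratins 8, 18 and 19 and EPCAM were present and CDH1 was not above 0.08 FPKM. Endothelial, leukocyte and distal tubule markers were at or near 0, with CD68 highest at 0.41 FPKM. Of 4 fibroblast and pericyte markers, LUM and DCN were present. LUM was at 42.5 to 106 FPKM and DCN at 4.95 and 5.73 FPKM in control and knockdown sample 1 and 0.80 to 1.17 FPKM in the other libraries, so both were highest in replicate 1 of both groups. The summed level of the 4 was 46.5 to 111 FPKM in controls and 43.8 to 95.1 FPKM in the knockdown, with PDGFRA at or near 0.

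Glycolysis splits glucose into pyruvate and yields ATP without oxygen, and lactate dehydrogenase then turns pyruvate into lactate so that the pathway can go on. When oxygen falls, hypoxia-inducible factor (HIF) is no longer hydroxylated and degraded, pairs with ARNT and binds DNA at ACGTG or GCGTG, which raises transporters, most glycolytic enzymes, and genes for blood vessel growth, pH control, mitophagy and collagen maturation. Proximal tubule cells in the kidney use little glucose as fuel and can make it, whereas cultured tubule lines usually depend more on glycolysis.

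The letters HIF binds were looked for in RefSeq promoter windows (GRCh38.p14, 250 bases before to 50 after each transcription start), which were found for 36 of the 40 genes, in 66 windows. ACGTG stood on either strand in 32 of the 66 windows (48.5%), beside 7518 of all 35116 windows (21.4%). GCGTG stood in 47.0% of the members' windows and 36.5% of all windows, and 1 or both stood in 71.2% and 48.4%. CACGTG reads ACGTG on both strands and was counted once per window. A match describes the letters only. The genes were chosen as known glycolytic or hypoxia-induced genes, so a higher share is no result of these data. All windows include those of genes not expressed here and were not matched for base content. The 8 stretches of 60 bases that follow are shown because they are the letters themselves in genes whose values are given next, from each end of the pathway and from the other hypoxia genes, and LDHA is shown as a gene with the letters whose test was not passed. Capitals mark ACGTG or its reverse complement. None of the 8 overlaps an exon of the GENCODE v44 annotation. Each is on the gene's own strand, 5′ to 3′, at chr2:74834052-74834111 (plus, HK2), chr10:6202797-6202856 (plus, PFKFB3), chr16:30065535-30065594 (plus, ALDOA), chr12:6535156-6535215 (plus, GAPDH), chrX:78104019-78104078 (plus, PGK1), chr11:18394449-18394508 (plus, LDHA), chr5:122077259-122077318 (minus, LOX) and chr10:72273772-72273831 (plus, DDIT4).
HK2: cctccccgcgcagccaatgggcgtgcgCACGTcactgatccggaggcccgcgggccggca
PFKFB3: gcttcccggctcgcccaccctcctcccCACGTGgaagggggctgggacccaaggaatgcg
ALDOA: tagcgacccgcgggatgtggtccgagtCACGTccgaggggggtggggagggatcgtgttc
GAPDH: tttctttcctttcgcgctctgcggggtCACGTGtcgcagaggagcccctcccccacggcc
PGK1: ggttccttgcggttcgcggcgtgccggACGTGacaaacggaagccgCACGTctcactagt
LDHA: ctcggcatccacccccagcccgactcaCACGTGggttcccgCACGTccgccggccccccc
LOX: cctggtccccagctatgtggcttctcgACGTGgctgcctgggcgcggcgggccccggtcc
DDIT4: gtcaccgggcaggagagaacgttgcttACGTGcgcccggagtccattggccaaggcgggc

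In control cells the 8 highest levels belonged to glycolytic enzymes. Levels between genes are compared as FPKM, which divides by length. GAPDH, the glyceraldehyde-phosphate dehydrogenase, was highest at 1154 ± 41.0 FPKM (SD, n = 3), followed by ENO1 (enolase) at 835 ± 42.6, TPI1 (triose-phosphate isomerase) at 383 ± 22.5 and PKM (pyruvate kinase) at 305 ± 15.2 FPKM, and the control ranges of these neighbours did not overlap. LDHA (lactate dehydrogenase A) at 239 ± 16.2 FPKM and PGK1 (phosphoglycerate kinase) at 233 ± 15.9 FPKM overlapped. The 5 highest genes held 66.2% of the summed FPKM of all 40.

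Below them came PGAM1 (phosphoglycerate mutase, 193 FPKM), ALDOA (aldolase A, 170 FPKM) and BNIP3, a mitophagy receptor and the highest gene outside glycolysis, at 141 ± 12.7 FPKM. SLC2A1, the GLUT1 glucose transporter, had 106 ± 8.17 FPKM and overlapped PFKP, the platelet-type phosphofructokinase, at 101 FPKM. From HK1 at rank 13 to P4HA2 at rank 20 each gene overlapped the next, over a span of 47.5 to 30.4 FPKM. At the low end were ADM at 3.56, ANKRD37 at 1.81, CA12 at 1.43, CA9 at 0.603 and ALDOC at 0.333 FPKM. VEGFA, the endothelial growth factor often used as a readout of hypoxia, had 7.61 ± 2.09 FPKM.

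**Figure D1:**
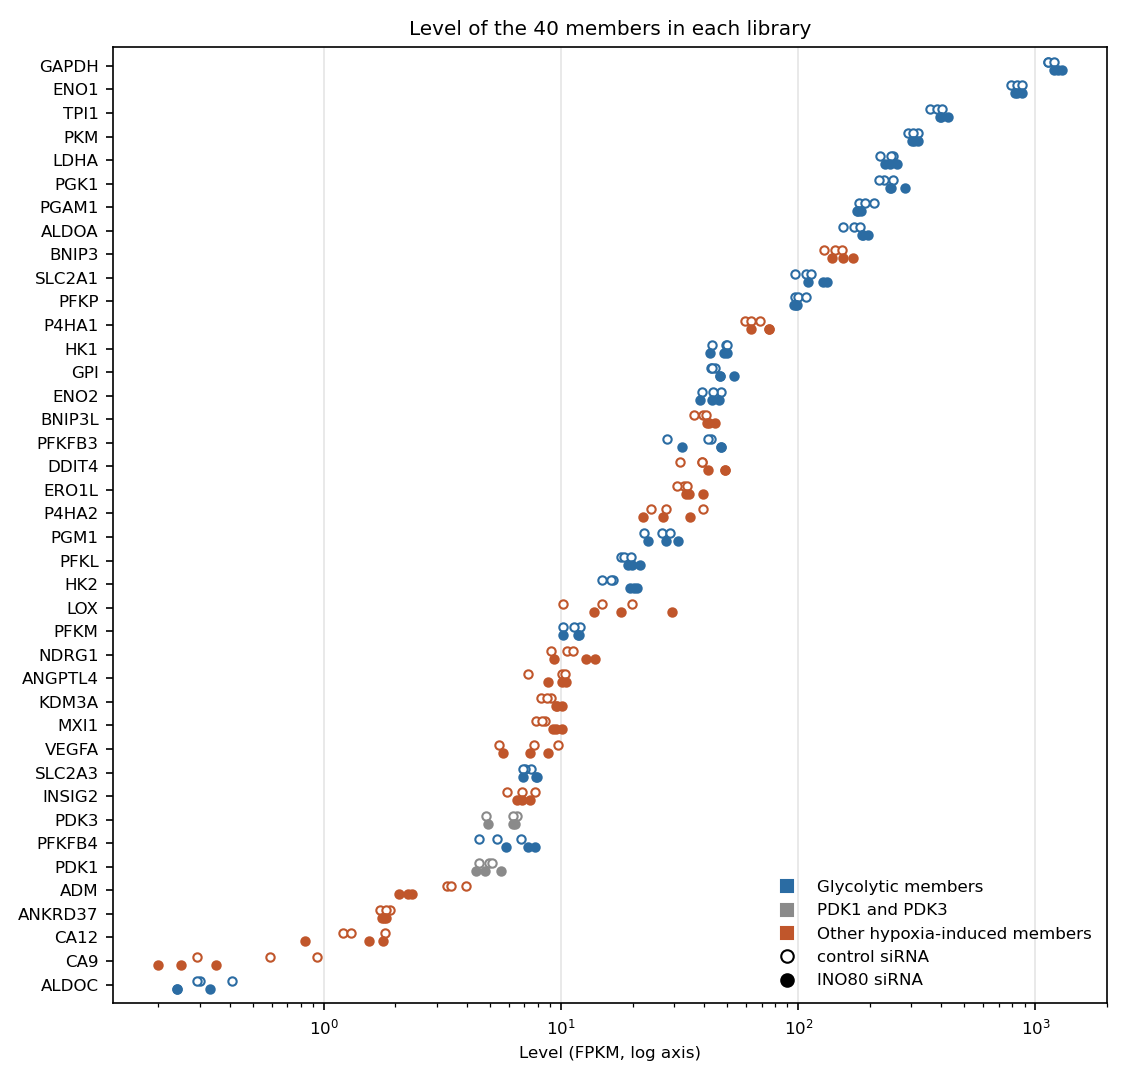
Level of each of the 40 genes in each library, in FPKM on a log axis, with genes ordered by the control mean, open circles for control siRNA and filled circles for INO80 siRNA. Glycolytic enzymes fill the upper ranks from GAPDH at 1154 FPKM, and CA9 and ALDOC lie under 1 FPKM.

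Several members of the set serve the same step, and the shares here are of the summed FPKM of the genes named. PFKP made up 77.3% of PFKP, PFKL and PFKM in controls, beside 14.2% for PFKL and 8.52% for PFKM. ENO1 made up 95.1% of ENO1 and ENO2, ALDOA 99.8% of ALDOA and ALDOC, SLC2A1 93.7% of SLC2A1 and SLC2A3, and PFKFB3 87.1% of PFKFB3 and PFKFB4. HK2 made up 25.0% of HK1 and HK2 in controls and 30.1% in the knockdown. Isoforms outside the 40 genes are not in these shares, among them HKDC1, a hexokinase-like enzyme at 44.3 FPKM in controls, and LDHB, the other main lactate dehydrogenase subunit, at 270.0 FPKM in controls beside 239 FPKM for LDHA.

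With the siRNA alone in the model, 2 of the 40 genes were called, which means an adjusted p under 0.05 over all 15343 rows in edgeR's quasi-likelihood test, with no limit on fold. HK2 was higher and ADM was lower, where 0.261% of all rows were called higher and 1.49% lower. Libraries with the same number in the 2 groups deviated together, so a second fit took the number as a block, that is, it compared each knockdown sample with the control of the same number. It called 18 genes higher and 4 lower, 45% and 10% of the set, where 11.4% of all rows were called higher and 13.4% lower. Without the block the median log2 fold change was 0.072 over the 40 genes and 0.0066 over all rows, and 27 of the 40 were above 0. With the sign ignored, the median was 0.116 over the 40 genes and 0.134 over all rows. By this median the changes were not larger in size than those of all rows. The 40 genes were not matched to other rows by counts, and noise in rows with low counts can raise the median over all rows. In bulk RNA, a change in some cells and a smaller change in all cells cannot be told apart, nor can fewer cells of a kind and less RNA per cell.

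Of the 40 genes, 20 were higher in all 3 pairs (50%, where 26.8% of all rows were) and 4 were lower in all 3 (10%, where 25.9% of all rows were). The 3 knockdown samples lay wholly above the 3 controls for 8 genes, HK2, GPI, ALDOA, BNIP3L, KDM3A, DDIT4, MXI1 and ERO1L, where 11.3% of all rows did so. They lay wholly below for PGAM1 and ADM, where 11.5% of all rows did so.

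**Figure D2:**
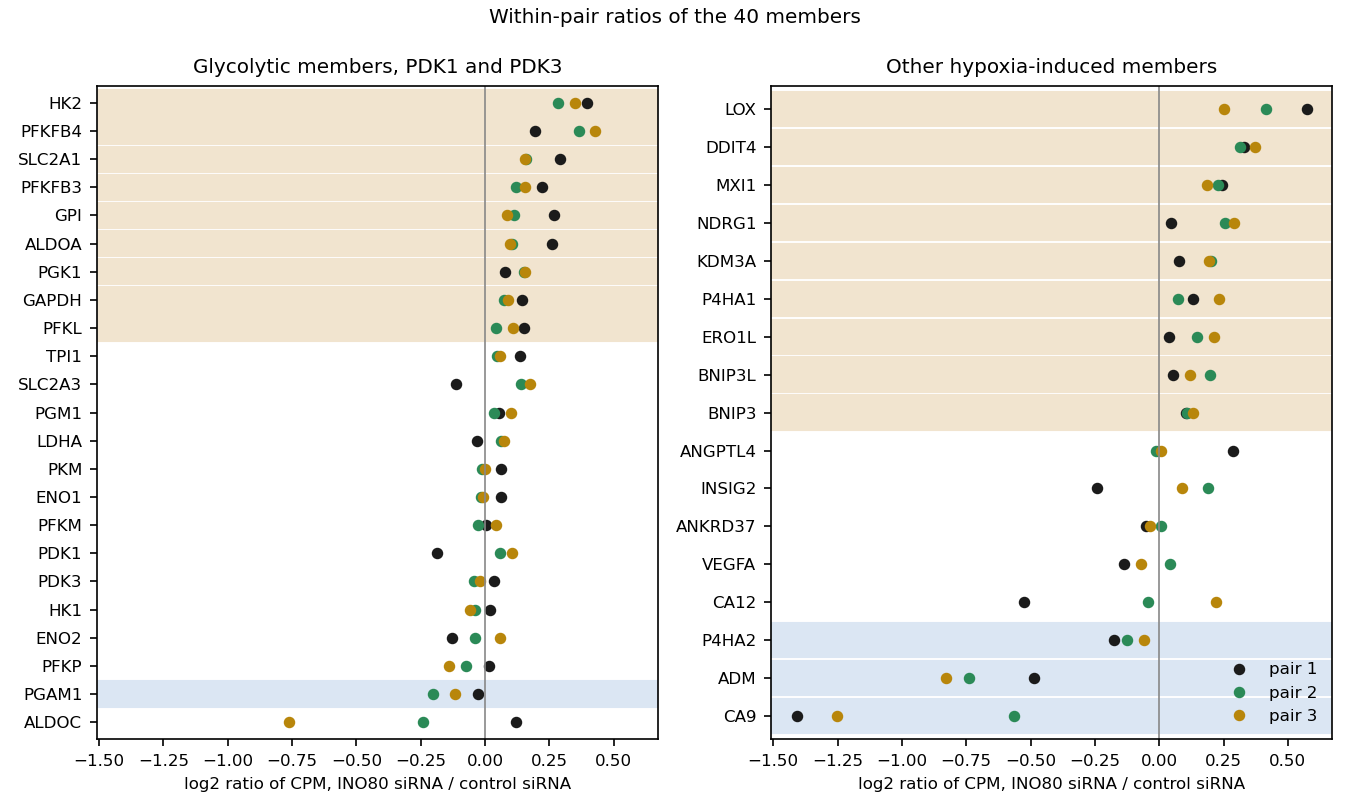
Each point is the log2 ratio of CPM in a knockdown sample over the control sample of the same number, with genes ordered by the blocked log2 fold change. Tan bands mark the 18 genes called higher and blue bands the 4 called lower with the replicate block, and in each banded row the 3 points lie on the same side of 0.

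Hexokinase 2, which traps glucose in the cell as glucose 6-phosphate, was the only glycolytic gene called without the block. HK2 (ENSG00000159399, chromosome 2, 75061108 to 75120486, plus strand, GRCh37) was at 92.4, 99.4 and 97.3 CPM in controls 1, 2 and 3 and at 122, 121 and 124 CPM in the knockdown. All 3 knockdown samples were above all controls. The fold was 1.27, a log2 fold change of 0.34 (SE 0.055), with an adjusted p of 0.0283 (edgeR). Leaving out any 1 of the 6 libraries ended the call, with adjusted p from 0.0525 to 0.151 and log2 fold changes from 0.31 to 0.37, as did limma on FPKM (adjusted p = 0.0677). With the block the adjusted p was 7.2e-07, and it stayed a call with each pair left out. HK1, the housekeeping hexokinase, had 294 ± 26.4 CPM in controls and 289 ± 30.0 in the knockdown (n = 3 each) and was not called in either fit.

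Of the glucose transporters, SLC2A1 was at 466, 407 and 474 CPM in controls and 570, 455 and 527 CPM in the knockdown. Sample 2 was the lowest of each group, and the groups overlapped through knockdown sample 2. Its log2 fold change was 0.20 (SE 0.094), with an adjusted p of 0.331 without the block and 8.0e-05 with it (edgeR). SLC2A3, the GLUT3 transporter, was higher in 2 of 3 pairs and not called (log2 fold change 0.067); its close copy SLC2A14 can share reads with it.

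The bifunctional enzymes PFKFB3 and PFKFB4 set the level of fructose 2,6-bisphosphate, the main activator of phosphofructokinase. PFKFB3 was at 158, 236 and 230 CPM in controls and 184, 257 and 256 CPM in the knockdown. Sample 1 was low in both groups, and the ranges overlapped although each pair rose. For PFKFB3 the log2 fold change was 0.16 (SE 0.17), with an adjusted p of 0.71 and, with the block, 0.0013 (edgeR). Without control sample 1 and without the block the direction turned, at -0.0046.

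PFKFB4 was at 42.8, 27.6 and 32.6 CPM in controls and 48.9, 35.5 and 43.8 CPM in the knockdown. Sample 1 was the highest of each group and every pair rose. Its log2 fold change was 0.32 (SE 0.17), with an adjusted p of 0.403, or 0.000212 with the block (edgeR). UCN2 overlaps PFKFB4 on the same strand and held 29.3% as many counts, so reads could be assigned to either.

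Along the rest of the upper pathway, GPI, which turns glucose 6-phosphate into fructose 6-phosphate, was higher with the block (log2 fold change 0.16, adjusted p = 0.00208). PFKL, the liver-type phosphofructokinase, was just inside the threshold (0.10, adjusted p = 0.049) and lost its call when any pair was left out. PFKP (-0.067) and PFKM (0.0058) were not called. SENP1 overlaps PFKM on the opposite strand and held 36.0% as many counts. ALDOA was at 979, 1054 and 1112 CPM in controls and 1173, 1135 and 1191 CPM in the knockdown. The groups did not overlap. Its log2 fold change was 0.15 (SE 0.063), with an adjusted p of 0.271, or 0.00111 with the block (edgeR). ALDOC, the brain-type aldolase, had a mean of 18.2 counts and was not called. RP11-192H23.4 overlaps ALDOC on the same strand with a mean of 46.5 counts, so reads could be assigned to either.

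In the lower pathway, GAPDH was at 3461, 3334 and 3550 CPM in controls and 3826, 3511 and 3774 CPM in the knockdown. Each pair was higher by a small step, and knockdown sample 2 fell within the control range. GAPDH had a log2 fold change of 0.10 (SE 0.059), with an adjusted p of 0.439, or 0.00914 with the block (edgeR). PGK1 was also higher with the block (0.13, adjusted p = 0.00253). The calls of GAPDH and PGK1 were lost when pair 2 or pair 3 was left out; for GAPDH the adjusted p was then 0.0723 and 0.177.

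PGAM1, which moves the phosphate of phosphoglycerate, went the other way. It was at 475, 533 and 488 CPM in controls and 466, 463 and 450 CPM in the knockdown. All knockdown samples were below all controls. PGAM1 had a log2 fold change of -0.12 (SE 0.060), with an adjusted p of 0.391, or 0.0152 with the block (edgeR), and the call was lost without pair 2 or pair 3 and with DESeq2 and the block (0.0558). PGAM4, a retrocopy of PGAM1 whose reads could be mixed with it, had a mean of 257 counts beside 9926 for PGAM1.

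The remaining lower steps were near the control level. LDHA was at 1597, 1360 and 1517 CPM in controls and 1563, 1420 and 1596 CPM in the knockdown. Pair 1 was slightly lower and pairs 2 and 3 slightly higher, and the groups overlapped. LDHA had a log2 fold change of 0.034 (SE 0.076), with adjusted p of 0.878 and, with the block, 0.455 (edgeR); without control sample 2 the value was -0.028, and without pair 1 the blocked adjusted p was 0.0279. TPI1 (0.079), PKM (0.016), ENO1 (0.012), ENO2 (-0.037) and PGM1, the phosphoglucomutase that links glycogen to glycolysis (0.065), were not called in either fit. ITGB3BP overlaps PGM1 on the opposite strand and held 17.9% as many counts. Pseudogene rows of TPI1 held 0.945% and those of LDHA 0.775% as many counts as the gene, and for every other glycolytic gene the share was lower.

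Summed over the 21 genes, the glycolytic set took 17365 ± 432 CPM in controls and 18135 ± 545 CPM in the knockdown (n = 3 each), a ratio of 1.04. Knockdown sample 2, at 17510 CPM, lay below control sample 3, at 17858 CPM. With the block, 9 of the 21 were higher (HK2, PFKFB4, SLC2A1, PFKFB3, GPI, ALDOA, PGK1, GAPDH and PFKL), PGAM1 was lower and 11 were not called. The shares were 42.9% higher and 4.76% lower, where 11.4% and 13.4% of all rows were.

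The pyruvate dehydrogenase kinases PDK1 and PDK3, which close the entry of pyruvate into the citric acid cycle, were not called in either fit, nor by DESeq2 or limma. PDK1 was at 77.0, 67.9 and 76.8 CPM in controls and 67.6, 70.7 and 82.6 CPM in the knockdown. Pair 1 was lower, pairs 2 and 3 were higher, and the groups overlapped. PDK1 had a log2 fold change of -0.0043 (SE 0.090, edgeR adjusted p = 0.991), and its sign turned without control sample 1 (0.026), control sample 3 (0.021), knockdown sample 1 (0.053) or knockdown sample 2 (0.026). PDK3 had a log2 fold change of -0.015.

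**Figure D3:**
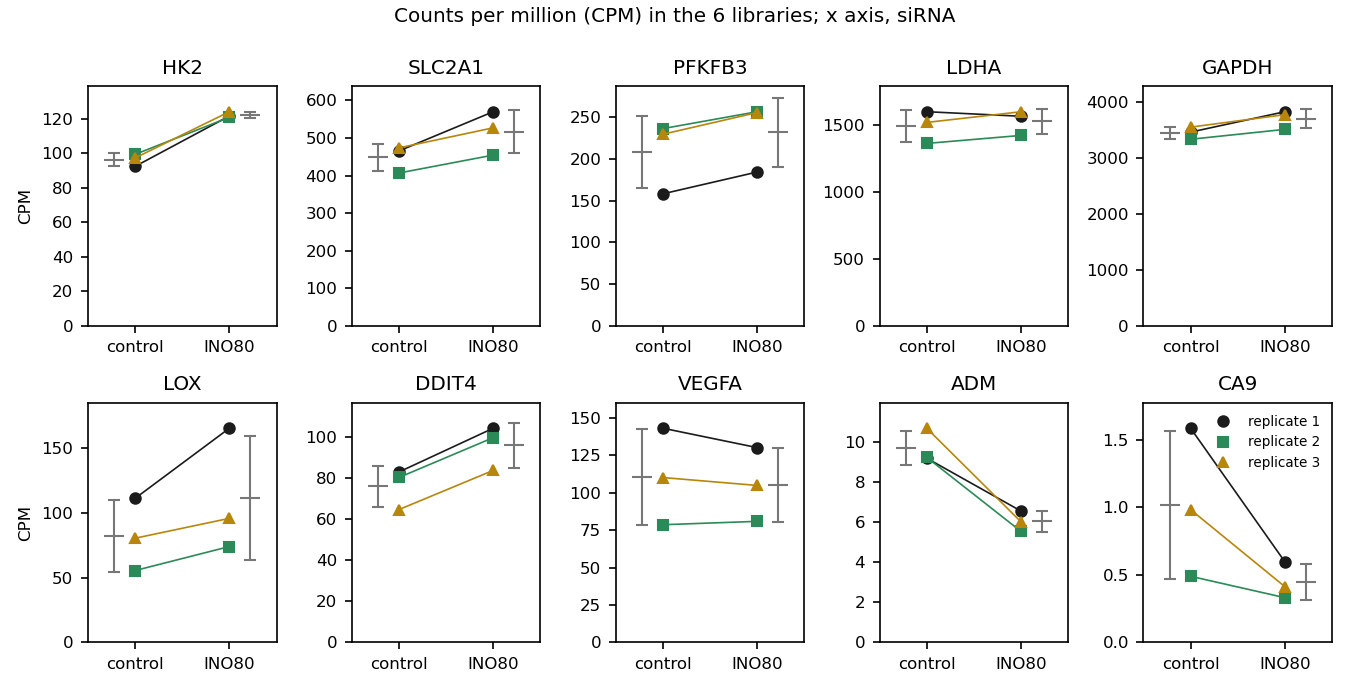
CPM of 10 genes in the 6 libraries, with a line joining the control and knockdown sample of the same number and grey bars for the mean and SD of each group (n = 3). HK2, ADM and, narrowly, DDIT4 separate by siRNA, whereas LOX, VEGFA and PFKFB3 differ more between replicate numbers than between siRNAs.

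Among the 17 other hypoxia-induced genes, ADM, the gene of the vasodilator peptide adrenomedullin, fell. ADM (ENSG00000148926, chromosome 11, 10326227 to 10328944, plus strand, GRCh37) was at 9.21, 9.25 and 10.7 CPM in controls and 6.57, 5.55 and 6.03 CPM in the knockdown. All 3 knockdown samples were below all controls. The fold was 0.621, a log2 fold change of -0.69 (SE 0.13), with an adjusted p of 0.0468, or 9.7e-05 with the block (edgeR). Leaving out any 1 of the 6 libraries ended the unblocked call, with adjusted p from 0.0659 to 0.183, while each blocked fit without a pair kept it; limma on FPKM gave 0.0654. Its promoter window held no ACGTG and held GCGTG.

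CA9, a membrane carbonic anhydrase that exports acid, was at 1.59, 0.489 and 0.983 CPM in controls and 0.597, 0.331 and 0.413 CPM in the knockdown. Every pair was lower, and the groups overlapped through control sample 2, the lowest control. The log2 fold change was -1.17 (SE 0.48), with an adjusted p of 0.272, or 0.0375 with the block (edgeR); without pair 1 or pair 3 the blocked adjusted p was 0.225 and 0.164. The mean was only 14.2 counts, and ARHGEF39, on the opposite strand across the same region, had 138; whether counting used strand is not given in the sources used here. CA12, the related enzyme, was not called (-0.073).

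VEGFA was at 143, 78.6 and 110 CPM in controls and 130, 80.9 and 105 CPM in the knockdown. The same order of samples, 1 over 3 over 2, held in both groups, and the groups overlapped. VEGFA had a log2 fold change of -0.070 (SE 0.22), with adjusted p of 0.914 and, with the block, 0.353 (edgeR). Without control sample 1 the value was 0.16 and without knockdown sample 2 it was 0.089. ANGPTL4, a secreted inhibitor of lipoprotein lipase, was not called (0.077).

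LOX, the lysyl oxidase that crosslinks collagen, was at 111, 55.4 and 80.3 CPM in controls and 165, 73.9 and 95.6 CPM in the knockdown. The order 1 over 3 over 2 again held in both groups, so the groups overlapped although every pair rose. For LOX the log2 fold change was 0.44 (SE 0.31) with an adjusted p of 0.546, and 0.42 (SE 0.050) with an adjusted p of 5.9e-07 with the block (edgeR). The unblocked value ran from 0.047 without knockdown sample 1 to 0.72 without control sample 1. The overlapping opposite-strand gene SRFBP1 held 17.1% as many counts.

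The prolyl 4-hydroxylase subunits, which prepare collagen for folding, were called in opposite directions with the block. P4HA1 was higher with the block (log2 fold change 0.15, adjusted p = 0.00462), and P4HA2 was lower. P4HA2 was at 346, 201 and 234 CPM in controls and 306, 184 and 225 CPM in the knockdown. Sample 1 was high in both groups, and the groups overlapped although every pair fell. Its log2 fold change was -0.13 (SE 0.22), with an adjusted p of 0.834, or 0.0132 with the block (edgeR). Without the block the direction turned without control sample 1 (0.13) or knockdown sample 2 (0.029), and with the block the call was lost without pair 2 (adjusted p = 0.10) and with DESeq2 (0.0599). P4HA1 lost its call without pair 3.

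DDIT4 (REDD1), an inhibitor of mTORC1 signalling, was at 82.9, 80.3 and 64.7 CPM in controls and 104, 99.7 and 83.7 CPM in the knockdown. All knockdown samples were above all controls, the nearest by under 1 CPM. The log2 fold change was 0.34 (SE 0.11), with an adjusted p of 0.187, or 1.8e-06 with the block (edgeR), and each blocked fit without a pair kept the call. NDRG1, a stress-response gene, was at 91.7, 103 and 109 CPM in controls and 94.6, 123 and 134 CPM in the knockdown. Pair 1 differed little and pairs 2 and 3 more, and knockdown sample 1 lay inside the control range. Its log2 fold change was 0.21 (SE 0.12), with an adjusted p of 0.456, or 0.00141 with the block (edgeR), and 0.0739 with the block but without pair 3.

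A further 5 genes were higher with the block only. MXI1, an antagonist of MYC, had a log2 fold change of 0.22 (adjusted p = 0.00436) and kept its call without each pair in turn, but DESeq2 with the block gave an adjusted p of 0.0666. KDM3A, a histone H3 lysine demethylase, had 0.16 (adjusted p = 0.00505). ERO1L, which supplies oxidizing power for disulfide bonds in the endoplasmic reticulum, had 0.13 (adjusted p = 0.00834). The mitophagy receptors BNIP3 and BNIP3L had 0.11 (adjusted p = 0.013) and 0.12 (adjusted p = 0.017). PNMA2 overlaps BNIP3L on the opposite strand and held 26.1% as many counts. KDM3A, ERO1L, BNIP3 and BNIP3L lost their call without pair 2 or pair 3, and also with DESeq2 and the block. ANKRD37 (-0.027) and INSIG2, which holds back sterol synthesis (0.0061), were not called. UFSP2 overlaps ANKRD37 on the opposite strand and held 341% as many counts.

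With the block, 9 of these 17 genes were higher, 3 were lower (P4HA2, ADM and CA9) and 5 were not called. The shares were 52.9% higher and 17.6% lower, where 11.4% and 13.4% of all rows were. The summed CPM of the 17 genes was 1780 ± 199 in controls and 1919 ± 177 in the knockdown (n = 3 each), a ratio of 1.08, with overlapping ranges.

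Of the 22 genes called with the block, 10 were also called whichever of the 3 pairs was dropped. They were SLC2A1, HK2, GPI, PFKFB3, PFKFB4, ALDOA, DDIT4, MXI1 and LOX, which were higher, and ADM, which was lower. The blocked fits without pair 1, 2 and 3 called 11.3%, 7.23% and 6.19% of all rows tested higher. DESeq2 with the block called 13 of the 22, and 9 of these 10. Of all 15343 rows it called 691 higher (4.5%) and 1161 lower. It did not call PFKL, PGAM1, BNIP3, BNIP3L, P4HA2, KDM3A, MXI1 or ERO1L, and it gave CA9 no adjusted p. How many of all rows called with the block kept their call in these fits was not counted. Each fit without a pair reuses the other pairs, so a kept call is not independent support.

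The 16 matched genes called higher with the block had ACGTG in 17 of 25 promoter windows (68%), and the 16 matched genes not called had it in 14 of 37 (37.8%), of which HK1 and PFKM have 7 windows each. Counted by gene, 12 of the 16 called higher and 12 of the 16 not called had it in at least 1 window. The matched genes called lower, ADM, CA9, P4HA2 and PGAM1, had it in 1 of 4 windows, that of CA9. Windows of 1 gene can share bases, so these are shares of windows and were not tested.

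Many of these genes also differed by replicate number. A test of the replicate number beside the siRNA called 22 of the 40 genes (55%), where 26.7% of all rows were called. With replicate 2 left out it called 11 of the 40, and the share of all rows in that fit was not counted. Here too the 40 genes were not matched to other rows by counts. The smallest p-values of this test belonged to LOX (adjusted p = 1.0e-12), P4HA2 (1.4e-12), VEGFA (7.2e-11) and PFKFB3 (5.6e-10, edgeR).

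Relative to sample 1, sample 2 differed by -1.09 on the log2 scale for LOX, by -0.77 for VEGFA, by -0.76 for P4HA2 and by 0.53 for PFKFB3. Of these, LOX, VEGFA and P4HA2 were highest in replicate 1 and PFKFB3 was lowest there. HK2 and ADM, the 2 genes called without the block, were not called for the replicate number (adjusted p = 0.708 and 0.65, edgeR). The fit without the block counts a difference by replicate number as error. Genes it calls therefore tend to differ little by number, and this is no separate result. Like LOX, VEGFA and P4HA2, LUM and DCN were highest in replicate 1, and what the numbers stand for was not tested.

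**Figure D4:**
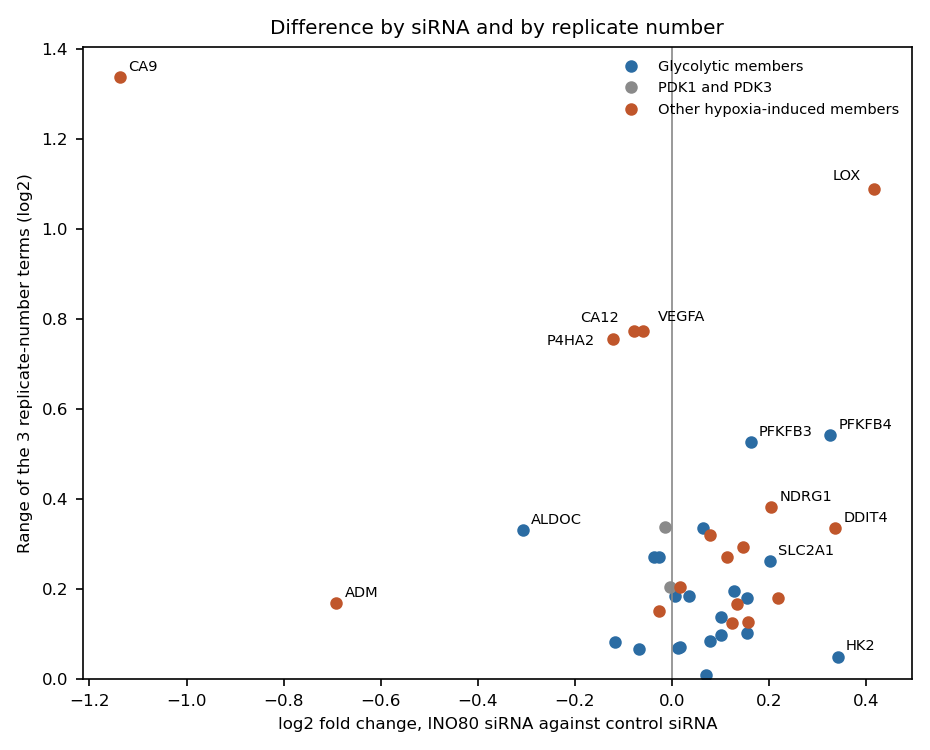
For each of the 40 genes, the blocked log2 fold change by siRNA on the x axis and the range of the 3 replicate-number terms, in log2 units, on the y axis. LOX and CA9 lie above 1 on the y axis, CA12, VEGFA and P4HA2 lie near 0 on the x axis with ranges above 0.7, and HK2 lies near the bottom with a siRNA difference of 0.34.

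Related genes were counted in the same way. Of 18 tested further glycolysis genes, 0 were called without the block by edgeR, DESeq2 or limma, and 2 had an unadjusted p under 0.05 in edgeR. With the block, PFKFB2 (log2 fold change 0.29) and SLC2A6 (0.13) were higher, and BPGM (-0.45), HKDC1 (-0.16), ENO3 (-0.31), C12orf5 (-0.22) and PGM2 (-0.18) were lower. These were 11.1% and 27.8% of the 18 genes, where 11.4% of all rows were called higher and 13.4% lower. BPGM makes 2,3-bisphosphoglycerate and C12orf5 encodes TIGAR, which lowers fructose 2,6-bisphosphate. The liver and muscle isoforms PKLR and PGAM2 had no more than 1 count in any library.

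In gluconeogenesis, PCK1, FBP1 and G6PC had a total of 3 or fewer counts each over the 6 libraries, and with the block only PC, pyruvate carboxylase, was higher among the 4 genes tested (0.70, edgeR adjusted p = 0.00264). Among 16 genes of pyruvate and lactate handling, PDP2, a pyruvate dehydrogenase phosphatase, was the single call with the block (0.46, edgeR adjusted p = 0.000307). In the pentose phosphate pathway, which branches off at glucose 6-phosphate, TKT (0.16) and H6PD (0.30) were among the genes higher with the block, and none of the 8 tested genes was lower. The shares called higher with the block were 25%, 6.25% and 37.5% in these 3 lists, where 11.4% of all rows were.

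Of 40 further hypoxia targets tested, CITED2, which competes with HIF for its coactivator, and HMOX1, the heme oxygenase, were lower in the unblocked test. That test called 1.49% of all rows lower. CITED2 went from 295 ± 9.95 to 224 ± 23.0 CPM (n = 3 each, log2 fold change -0.40, edgeR adjusted p = 0.0471). HMOX1 went from 95.0 ± 10.9 to 67.3 ± 3.34 CPM (n = 3 each, -0.50, edgeR adjusted p = 0.0377). In both the groups did not overlap. Leaving out 1 library ended the call of HMOX1 in 6 of 6 fits (adjusted p 0.0651 to 0.17) and that of CITED2 in all but the fit without knockdown sample 1 (0.0174 to 0.203). With the block 7 were higher, among them BHLHE40 (0.27) and VLDLR (0.23), and 5 were lower, among them BHLHE41 (-0.41), a circadian repressor. These were 17.5% and 12.5% of the 40 targets, where 11.4% of all rows were called higher and 13.4% lower. For 0 of the 40 targets did the 3 knockdown samples lie wholly above the controls, where 11.3% of all rows did so. They lay wholly below for 3 targets, where 11.5% of all rows did so. In all 3 pairs, 20 of the 40 targets were higher (50%, where 26.8% of all rows were). Another 5 were lower in all 3 pairs (12.5%, where 25.9% of all rows were).

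Of the HIF factors and oxygen sensors, 9 were tested and 0 were called without the block by edgeR, DESeq2 or limma, with 1 at an unadjusted p under 0.05 in edgeR. HIF1A was at 991, 1085 and 955 CPM in controls and 866, 939 and 852 CPM in the knockdown. All knockdown samples were below all controls. Its log2 fold change was -0.19 (SE 0.069), with an adjusted p of 0.216, or 4.1e-05 with the block (edgeR). EPAS1, which encodes HIF-2 alpha, was higher with the block (0.18, adjusted p = 0.000148), as was HIF1AN, the asparaginyl hydroxylase that dampens HIF activity (0.13, adjusted p = 0.0315). ARNT (-0.0069) and EGLN1, the main oxygen-sensing prolyl hydroxylase (-0.0042), were not called, and HIF3A had no count. With the block 22.2% of the 9 genes were higher and 11.1% lower, where 11.4% and 13.4% of all rows were.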

How the data were processed

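RNA was poly-A selected, made into directional paired-end libraries and sequenced on a HiSeq. The authors deposited raw counts per gene and FPKM in 1 table. The submitters' processing notes name HISAT2 2.0.1, HTSeq and hg19, whereas the study's methods name ELAND and hg38; the coordinates in the table are those of GRCh37. The strand setting of counting is not given in the sources used here.

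The deposited counts were filtered with edgeR's filterByExpr, scaled by TMM and tested with edgeR 4.0.16 (quasi-likelihood, R 4.3.3) with siRNA alone, and p-values were adjusted by Benjamini-Hochberg over 15343 rows. CPM used TMM-scaled totals. A second fit added the replicate number as a block. Deviations from the group mean correlated at 0.427 to 0.639 between libraries of the same number and at -0.447 to 0.165 between others. A gene's deviations sum to 0 within a group, so positive values at the same number push the others down. The gap between the 2 ranges is therefore partly built in. On this basis the numbers were taken to pair the samples, and the labels give only the number. Alternatives were median ratio scaling, no filter, a mean FPKM of at least 1, DESeq2 1.42.0 with and without the block, limma 3.58.1 on log2(FPKM + 0.1), each library or pair left out, and adjusted p under 0.1. On counts simulated without a difference between pairs, the unblocked test recovered 198 of 200 changed genes. On counts simulated with such a difference, the blocked test recovered 200 of 200. The unblocked test was not simulated with a difference by replicate number, which these libraries have, so its share does not give its power here. Neither share is taken as the power for changes of the sizes reported here.

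The 40 genes and the gene lists were chosen with earlier results of these data known. Library values and tests were given for genes called without the block, for up to 8 in each direction with the smallest p with it, and for VEGFA, CA9, SLC2A1, HK2, PFKFB3, LDHA, PDK1 and GAPDH; of the related lists, for genes called without the block and up to 3 per direction called with it. C12orf5, PGM2 and genes given as not called were named after their values were seen. A few genes of the related lists are not reported here.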

Additional observations from a re-analysis of the deposited data

How the results depend on the processing

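With the siRNA alone, 268 of 15343 genes were called, 1 of the 40 genes higher and 1 lower. With the replicate block 3798 genes in all were called, 18 of the 40 genes higher and 4 lower, 10 of them glycolytic and 12 other hypoxia genes. DESeq2 called 637 genes in all and, with the block, 1852, with 12 genes higher and 1 lower, 8 glycolytic and 5 other hypoxia genes. Without a filter on low counts 708 genes in all were called, with 3 genes higher (HK2, LOX and DDIT4) and 3 other hypoxia genes called. limma on FPKM called 76 genes in all and 0 of the 40 genes, 0 higher and 0 lower, where edgeR had 7 at an unadjusted p under 0.05 and DESeq2 had 2 calls. An adjusted p under 0.1 called 603 genes in all.

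Leaving out 1 library, or 1 pair with the block, called 18 to 3978 genes in all, 0 to 19 genes higher, 0 to 4 lower, 0 to 12 glycolytic and 0 to 11 other hypoxia genes called. The 6 fits without 1 library called 18 to 146 genes in all and 0 of the 40 genes, and those without a pair and with the replicate block called 2251, 2623 and 3978 genes in all and 9, 11 and 19 genes higher; all have fewer samples. The replicate number was called for 22 of the 40 genes and for 11 to 24 without a replicate, the lowest without replicate 2. The shares of all rows called in the fits without a replicate were not counted. The log2 fold change of PDK1 was -0.0043 and turned to 0.0071 without the filter and 0.0013 with limma; with libraries left out it ran from -0.095 to 0.079 and was 0.053 without INO80 replicate 1. Such fits also turned the sign of PFKFB3 (-0.0046 to 0.30), P4HA2 (-0.35 to 0.13), VEGFA (-0.27 to 0.16) and LDHA (-0.028 to 0.085). The cause was not tested. In all, 16 of the 40 genes turned sign under at least 1 alternative, each with a log2 fold change of 0.158 or less in size, and 24 did not, among them HK2, SLC2A1, PFKFB4, ALDOA, GAPDH, PGAM1, CA9, ADM, NDRG1, DDIT4 and LOX. Of the 40, 27 were above 0, and 23 to 32 over the alternatives. CA9, with a mean of 14.2 counts, and ALDOC, with 18.2, are limited by depth, and each overlaps a gene with more counts.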
